A study of Mus musculus with 8 samples.

Results

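The step from uncommitted to committed T-cell progenitor was followed in control cells as the difference between 2 sort gates, each with 2 libraries, 4 of the 8 libraries of the series. Bone-marrow progenitors came from mice labelled B6. CRISPR-Cas9/Bcl2, which the series text also gives as carrying Bcl11b-mCherry/mCherry, a fluorescent reporter of the gene Bcl11b. They received control guide RNAs by retrovirus and then grew for 6 days on OP9-DLL1, stromal cells that display the Notch ligand DLL1, given the cytokines IL-7 and Flt3 ligand, each at 10 ng/ml. Sorted cells lacked lineage markers, carried the infection marker and had CD25 on their surface. Cells without mCherry (pre-commitment, here the early gate) and with mCherry (post-commitment, here the late gate) were sequenced in bulk. The remaining 4 libraries are the same gates with 3 guides against Stat5a and 3 against Stat5b (sgStat5), from the same mouse genotype and culture. By these labels the cells of all 8 libraries carry Cas9 and a Bcl2 transgene, a survival factor; the sources used here give neither the promoters of these transgenes nor the target of the control guides. Every gene of the count table was examined, and 13775 of 24506 symbols had enough counts to be tested.

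T-lineage commitment is the point at which thymic progenitors lose the ability to become other blood cells. Notch signals start the program, and Bcl11b, a zinc-finger transcription factor, is switched on at commitment and restrains progenitor and innate-cell genes. Progenitor factors such as PU.1 (Spi1) are shut down, and genes for the CD3 chains, the pre-T-cell receptor and receptor gene recombination are turned up.

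Promoter stretches of 6 genes are shown because they belong to members on which the results below turn: a divergent pair of CD3 genes, 3 interferon-inducible genes and the integrin gene that fell furthest among the integrins. Each is the RefSeq sequence of build GRCm38.p6 (mm10) that ends at the last base before the transcription start, written 5′ to 3′ on the strand of the gene, with matched motifs in capitals. In Cd3d, at chr9:44981659-44981785 on the plus strand, capitals mark the E2A E-box, whose letters are CAGGTG, and the TCF/LEF motif, whose letters are CTTTGA. In Cd3g, at chr9:44980432-44980594 on the minus strand, they mark the same E-box and the motif of GATA factors, spelled AGATAA. They mark GAAANNGAAA (the ISRE, the interferon-stimulated response element) in Ifit3 at chr19:34583358-34583528, Gbp2 at chr3:142620589-142620662 and Gbp5 at chr3:142496754-142496933, all on the plus strand. They mark GAGGAAG (ETS) in Itga2b at chr11:102469884-102470024 on the minus strand. A motif was searched on both strands, so some capitals show a motif as read from the other strand, and matches of different motifs were allowed to overlap.
Cd3d: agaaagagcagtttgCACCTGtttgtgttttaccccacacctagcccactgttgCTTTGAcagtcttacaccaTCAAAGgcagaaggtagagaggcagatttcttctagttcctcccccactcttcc
Cd3g: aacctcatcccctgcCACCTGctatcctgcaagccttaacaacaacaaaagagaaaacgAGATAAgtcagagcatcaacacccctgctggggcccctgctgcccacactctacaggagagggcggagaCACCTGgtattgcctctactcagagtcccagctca
Ifit3: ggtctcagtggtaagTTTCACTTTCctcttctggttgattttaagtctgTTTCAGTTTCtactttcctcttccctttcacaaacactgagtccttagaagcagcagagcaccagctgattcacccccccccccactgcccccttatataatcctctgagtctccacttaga
Gbp2: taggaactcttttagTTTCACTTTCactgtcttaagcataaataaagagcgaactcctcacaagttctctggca
Gbp5: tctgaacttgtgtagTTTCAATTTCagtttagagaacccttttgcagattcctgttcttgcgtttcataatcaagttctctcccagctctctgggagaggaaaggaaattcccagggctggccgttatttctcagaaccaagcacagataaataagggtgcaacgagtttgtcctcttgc
Itga2b: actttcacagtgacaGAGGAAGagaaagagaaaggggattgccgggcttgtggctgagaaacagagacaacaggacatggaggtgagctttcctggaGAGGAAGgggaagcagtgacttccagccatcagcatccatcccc
The starts of Cd3g and Cd3d lie 1354 bases apart and are read away from each other, and Cd3g has E2A E-box letters beginning at positions -148 and -35 and Cd3d at position -112, counted from -1 at the last base before the start. The 2 ISRE matches of Ifit3 begin at -156 and -122, that of Gbp2 at -59 and that of Gbp5 at -165. Of the 13775 tested genes, 9378 had a 300-base RefSeq window, from 250 bases before to 50 after the start, at the start of the counted transcript.

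The control libraries held 25864734 and 31084744 counts in the early gate and 26627248 and 31209177 in the late gate, for replicates 1 and 2. Values below are CPM, counts scaled to library size with TMM factors, in that order of replicates. The replicate numbers differed in the sex-linked RNAs: Xist stood under 1 CPM in all 4 replicate 1 libraries and at 1388 to 2345 CPM in replicate 2, with Ddx3y at 101 to 125 and 29.3 to 46.0 CPM. By these RNAs the replicate numbers differ in the sex make-up of their cells. Replicate numbers were fitted as a block, and whether they are separate mice or cultures is not given. A p-value here covers no more than the spread among these libraries, of which the part within a replicate number may be technical.

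Bcl11b, the gene behind the reporter gate, served as a check of the sort and is no finding. It stood at 132 and 45.6 CPM in the early and 542 and 219 CPM in the late libraries, 4.40-fold higher (log2 difference 2.14, SE 0.14). Il2ra, which encodes the gate marker CD25, had 3152 and 2887 CPM early and 2948 and 3075 CPM late, with no call (log2 difference -0.01, SE 0.11). The series text once calls the late cells reporter negative although it also gives them as mCherry-positive; by RNA, Bcl11b stood higher in the late member of both pairs. Stat5a (258 and 257 early, 257 and 238 CPM late) and Stat5b (255 and 249 early, 279.8 and 255 CPM late) did not pass. Cd4 was at 0 in both early libraries and 0.881 and 0.613 CPM in the late ones, and Cd8b1 did not exceed 0.386 CPM, so RNA of the coreceptors of later thymocytes was near or at 0.

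Between the gates 1507 genes passed an adjusted p of 0.05 in edgeR's quasi-likelihood F-test, 10.9% of those tested. Of these 914 were higher (6.64%) and 593 lower (4.3%) in the late gate, 260 and 147 of them by more than 2-fold. All 1507 pointed the same way in pair 1 and pair 2, as did 73.7% of all tested genes. The calls were made on these same pairs, so agreement among called genes adds no support to them. The differences were larger in the replicate 1 pair for 1358 of the 1507, with a median absolute log2 difference of 0.82 in pair 1 and 0.49 in pair 2. In 813 both late libraries lay above both early ones and in 573 both lay below, where 24.6% and 24.2% of all tested genes did so. The calls rest on the replicate block: without it 2 genes passed, both higher, Gfra1 (log2 difference 2.08, adjusted p = 0.0268 by edgeR) and Marcks (0.97, adjusted p = 0.0275), while 2049 stood at an unadjusted p under 0.05. In a single simulated data set 9.25% of the 173 calls with the block were false, above the threshold of 0.05, and 0% of 102 without it. The threshold limits an average over many data sets, so 1 data set cannot show whether it is kept. Of the simulated 2-fold changes, 76% were recovered with the block and 39% without it. The data were simulated from the fit with the block, so a replicate effect was built in. This gap therefore does not bear on which fit suits the real libraries. The calls also rest on replicate 1: without the early replicate 1 library 143 were higher and 18 lower, and without the late one 147 and 22.

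**Figure D1:**
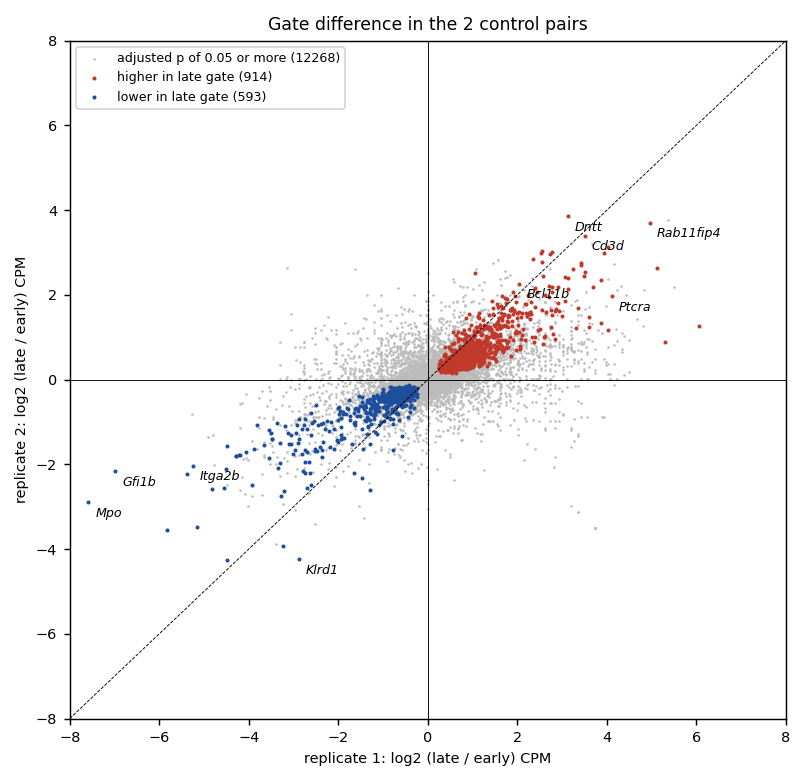
Log2 ratio of late to early CPM in the replicate 1 pair (horizontal) and the replicate 2 pair (vertical) for the 13775 tested genes, with the 914 called higher in red and the 593 called lower in blue; the dashed line is equality. Called genes lie in the quadrants of equal sign, and for 1358 of the 1507 the difference in pair 1 is the larger.

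Genes of the CD3 complex and the pre-T-cell receptor rose: 5 of 5 tested members were higher in the late gate and 0 lower, with a median log2 difference of 2.80 beside 0.03 over all tested genes. The other 7 members, T-cell receptor constant-region genes, were not among the symbols used here. Over all tested genes 6.64% were higher and 4.3% lower. Cd3d, a signalling chain of the complex (chromosome 9, 44981786 to 44987052, plus strand), went from 19.2 and 3.54 to 218 and 37.8 CPM (10.8-fold, log2 difference 3.43, SE 0.35, adjusted p = 0.00121). Both late libraries lay above both early ones. Its neighbour Cd3g (44969572 to 44980431, minus strand) went from 139.7 and 35.5 to 813 and 283 CPM (6.59-fold, SE 0.26 on the log2 scale), again without overlap. Cd3e (44998743 to 45009590, minus strand) went from 35.7 and 3.73 to 237 and 29.7 CPM (6.98-fold, SE 0.18), and here the groups overlapped, because early replicate 1 stood above late replicate 2. Cd247, the zeta chain, rose 2.66-fold, from 47.3 and 39.05 to 146 and 90.7 CPM. Ptcra, the alpha chain of the pre-T-cell receptor and a Notch target, went from 0.630 and 0.225 to 12.1 and 1.10 CPM (12.5-fold, SE 0.70 on the log2 scale, adjusted p = 0.0146); its replicate 2 pair stayed near 1 CPM. In every one of these genes replicate 1 was the higher of the 2 libraries in both gates. Without the early or the late replicate 1 library, 4 and 4 of the 5 passed. In these bulk libraries fewer cells of a type and less RNA per cell cannot be told apart, here and in every comparison below.

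**Figure D2:**
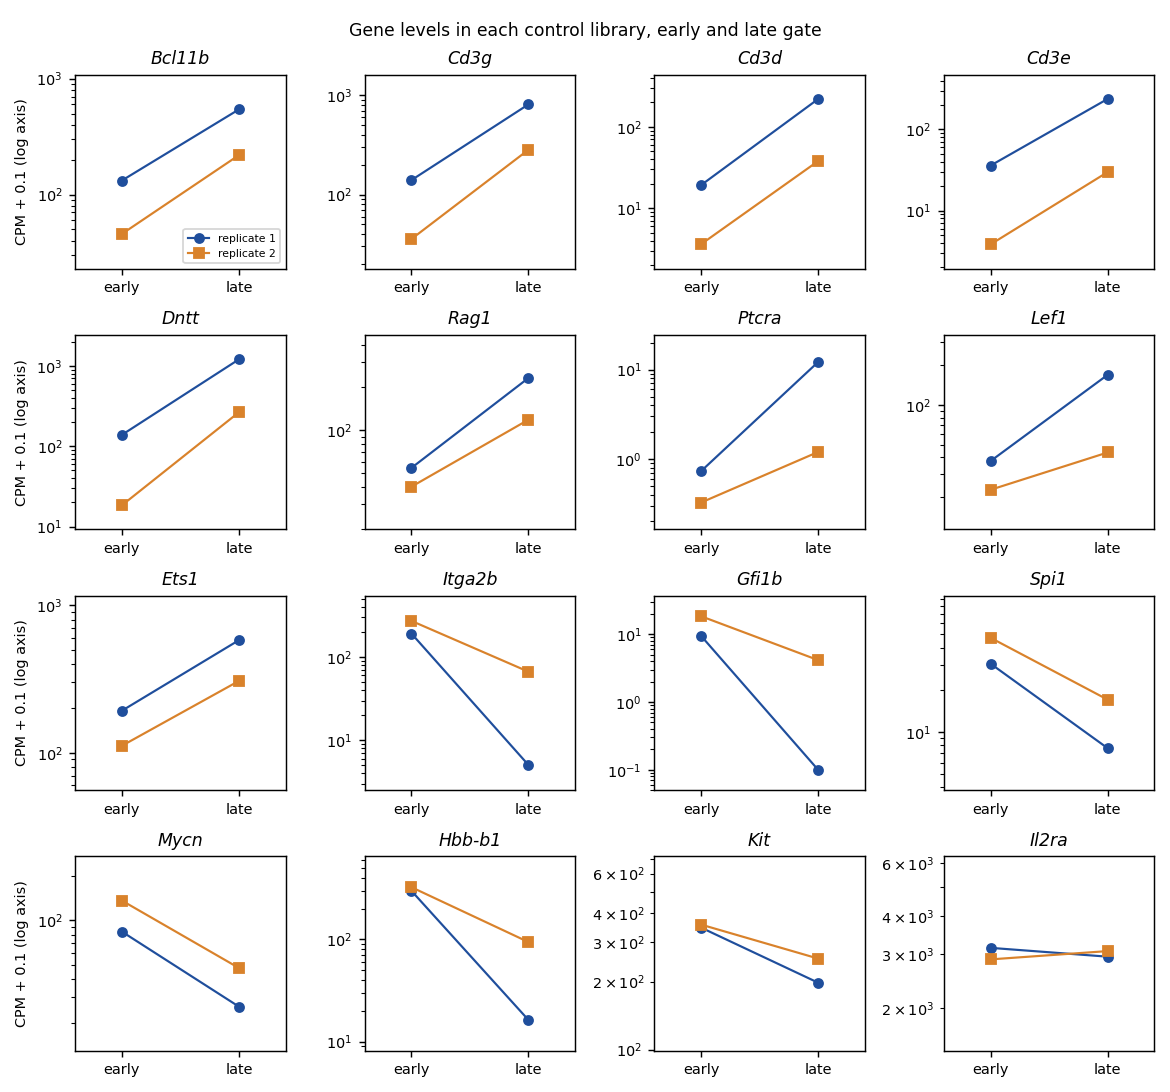
CPM plus 0.1 on a log axis in the early and late control libraries for 16 genes, 1 panel each, with lines joining libraries of the same replicate number (blue circles replicate 1, orange squares replicate 2). The CD3 genes, Dntt, Rag1, Lef1 and Ets1 climb in both pairs with replicate 1 above replicate 2, Itga2b, Gfi1b, Spi1 and Mycn descend in both, and Il2ra stays between 2887 and 3152 CPM.

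Genes of receptor gene recombination rose with them, 7 of 12 higher (58.3%) and 0 lower (median 0.67). The shares of all tested genes were 6.64% and 4.3%. Dntt, the terminal transferase that adds bases at joined segments (chromosome 19, 41029275 to 41059525), went from 138 and 18.3 to 1207 and 265 CPM (10.5-fold, SE 0.30 on the log2 scale, adjusted p = 0.000921). Rag1, a subunit of the recombinase, rose 3.56-fold from 54.1 and 39.9 to 233 and 118 CPM, and its partner Rag2 rose 2.75-fold from 24.01 and 20.7 to 75.6 and 49.8 CPM. Of the end-joining genes, Xrcc6 (Ku70) rose from 128 and 96.5 to 291 and 175 CPM, and Lig4, Prkdc and the DNA-bending cofactor Hmgb2 rose by 0.82, 0.33 and 0.39 on the log2 scale. Xrcc5 (Ku80), which pairs with Ku70, had 69.7 and 55.7 CPM early and 61.2 and 61.8 CPM late and did not pass. The count was 5 with either replicate 1 library left out.

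Proximal T-cell receptor signalling had 14 of 27 members higher (51.9%) and 3 lower (11.1%), with a median of 0.70. Among all tested genes the shares were 6.64% and 4.3%. Zap70, the kinase that binds phosphorylated CD3 chains, went from 3.35 and 0.707 to 19.5 and 1.71 CPM (4.15-fold), with early replicate 1 above late replicate 2. Its relative Syk, used before it in development, fell from 145 and 130.04 to 103 and 95.99 CPM (log2 difference -0.47, SE 0.10, adjusted p = 0.0181). Per kilobase of transcript, Syk stood above Zap70 in every control library: 20.1, 18.6, 14.4 and 13.4 FPKM against 1.05, 0.230, 6.22 and 0.544 FPKM, for early and then late replicates 1 and 2. The kinase Lck rose from 367 and 294 to 691 and 406 CPM and the adaptor Lat from 181 and 98.1 to 349 and 157 CPM. The adaptors Skap1 and Sh2d1a rose by 1.64 and 2.03 on the log2 scale, the phospholipase Plcg1 by 0.99 and the Ras activator Rasgrp1 by 1.05. Members that also rose included Fyn, Prkcq, Sh2d2a, Trat1, Pag1 and Cd6. The other decreases were the phosphatases Ubash3b (-1.24) and Ptpn6 (-0.39), both of which restrain antigen-receptor signals. Themis, which tunes receptor signals, had 43.3 and 3.41 CPM early and 85.97 and 5.90 CPM late, farther apart between replicates than between gates, and did not pass. Without the early or late replicate 1 library 5 and 5 members were higher and none lower.

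Of 20 tested T-cell surface receptors 5 were higher (25%) and 0 lower, beside 6.64% and 4.3% of all tested genes. Ctla4, an inhibitory receptor, rose 4.85-fold from 40.3 and 17.97 to 219 and 75.5 CPM, and Thy1, an early T-lineage marker, rose 1.87-fold from 584 and 496 to 1126 and 904 CPM. Cd6, Cd27 and Ly9 rose by 1.48, 0.47 and 0.72 on the log2 scale. Cd2 (2.83 and 0.482 early, 14.6 and 2.52 CPM late), Cd5 (8.86 and 7.49 early, 11.7 and 8.87 late) and Cd28 (4.45 and 10.2 early, 10.3 and 8.32 late) did not pass. The count was 2 with either replicate 1 library left out.

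Of 21 tested T-lineage transcription factors, leaving out the gate gene Bcl11b, 8 were higher and 0 lower, with a list median of -0.12. Over all tested genes 6.64% were higher and 4.3% lower. Lef1 rose 2.999-fold from 37.4 and 22.6 to 169 and 43.5 CPM and Ets1 2.88-fold from 193 and 111 to 581 and 307 CPM (log2 difference 1.53, SE 0.08, adjusted p = 0.000197). Ets2 went from 13.2 and 13.98 to 45.4 and 25.7 CPM, and Gfi1, a repressor, from 46.1 and 31.05 to 82.5 and 52.4 CPM. Runx1, Satb1, Myb and the E protein Tcf12 (HEB) rose by 0.55, 0.71, 0.27 and 0.57. Tcf7 (TCF-1) had 1139 and 1115 CPM early and 1076 and 1004 CPM late (log2 difference -0.12, SE 0.06) and did not pass, and Gata3 had 136 and 133 CPM early and 112 and 119 CPM late (-0.22, SE 0.09) and did not pass. Runx3 and Ikzf1 did not pass either. Among the E proteins and their Id inhibitors, Tcf3 (E2A) had 261 and 261 CPM early and 255 and 247 CPM late without a call, while Id3 rose from 2.09 and 6.30 to 6.51 and 14.7 CPM and Tcf12 was the only other of 6 to pass. Without the early and without the late replicate 1 library 1 and 1 of the 21 factors passed, and 0 and 0 of the E and Id proteins.

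Of 23 tested progenitor transcription factors 9 fell (39.1%) and 0 rose, with a median of -1.05. Among all tested genes 4.3% were lower and 6.64% higher. Spi1, which encodes PU.1, went from 30.7 and 47.2 to 7.54 and 16.9 CPM (log2 difference -1.72, SE 0.25, adjusted p = 0.00533). Gfi1b, a transcriptional repressor active in the megakaryocyte-erythroid lineage, went from 9.41 and 18.4 to 0 and 4.07 CPM (8.67-fold lower). Tal1, a stem-cell and erythroid factor, went from 15.6 and 18.4 to 2.76 and 5.68 CPM. All 3 were lower in both late libraries than in either early one. Mycn went from 83.7 and 136 to 25.7 and 47.2 CPM and Bcl11a, the paralog of Bcl11b, from 34.2 and 48.7 to 8.50 and 25.2 CPM. Hhex, Mef2c, Cebpb and Zbtb16 (PLZF, a factor of innate-like lymphocytes) fell by 1.05, 1.28, 0.90 and 1.61 on the log2 scale. Erg (112 and 104 early, 101 and 114 CPM late) and Runx2 (21.8 and 36.7 early, 22.5 and 36.7 late) did not pass, and Lyl1 (125 and 170.2 early, 68.6 and 129 late) did not either. The count was 2 and 1 without the early and the late replicate 1 library.

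Of 15 progenitor receptors 4 fell (26.7%) and 2 rose (13.3%), beside 4.3% and 6.64% of all tested genes. Kit, the receptor for stem cell factor, went from 346 and 357 to 198 and 253 CPM (log2 difference -0.65, SE 0.13, adjusted p = 0.0148). Cd34 fell from 99.7 and 99.6 to 16.5 and 49.1 CPM, Cd44 from 37.7 and 76.1 to 10.7 and 47.9 CPM and the macrophage receptor Csf1r from 1.46 and 2.35 to 0.153 and 0.452 CPM. Cd44 overlapped between the gates. Il7r, the IL-7 receptor alpha chain, rose from 47.4 and 41.6 to 82.8 and 81.6 CPM (SE 0.11, adjusted p = 0.00324), and Ly6a (Sca-1), also an interferon-inducible gene, from 12.2 and 15.3 to 37.1 and 41.8 CPM. With either replicate 1 library left out, the 4 decreases were lost, with 2 members higher and 0 lower. Flt3, whose ligand was in the medium, did not exceed 2.55 CPM in any control library.

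Leukocyte integrins held 2 decreases (11.8%) and 0 increases among 17 tested, beside 4.3% lower and 6.64% higher of all tested genes. Itga2b, the platelet integrin CD41 (chromosome 11, 102453297 to 102469883, minus strand), went from 191 and 271 to 4.94 and 66.4 CPM (9.20-fold lower, log2 difference -3.20, SE 0.63, adjusted p = 0.0162). Itgax (CD11c) went from 17.7 and 16.1 to 1.68 and 3.71 CPM. The remaining 15 did not pass, Itga4 (996 and 1001 early, 820.2 and 937 CPM late) and Itgb3 (394 and 222 early, 386 and 256 late), the partner of CD41, among them. With either replicate 1 library left out, 1 integrin was lower. Of 18 chemokine and trafficking receptors 6 rose (33.3%) and 2 fell (11.1%). S1pr1, which guides exit from tissues, rose from 2.72 and 3.18 to 11.8 and 6.23 CPM, the thymus-homing receptor Ccr9 from 0.276 and 0.0321 to 1.99 and 0.807 CPM, and Ccr7, Cxcr4 and Selplg by 1.17, 0.40 and 0.43 on the log2 scale. Ccr2 fell from 219.7 and 213 to 115 and 153 CPM. Of the 6 increases 1 and 0 passed without the early and the late replicate 1 library.

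Of 20 Notch receptors and targets 4 were higher, among them 2 receptors, and 2 lower (median 0.06). They made up 20% and 10%, beside 6.64% and 4.3% of all tested genes. Notch1 went from 585 and 316 to 1114 and 481 CPM (log2 difference 0.78, SE 0.17, adjusted p = 0.0212) and Notch3 from 35.8 and 19.1 to 125 and 49.4 CPM (3.05-fold). Early replicate 1 of Notch1 lay above late replicate 2, so its gates overlapped. The others that rose were Ptcra and Cd3e, described above. The decreases were Myc (209 and 225 to 139 and 196 CPM) and Deptor, an inhibitor of mTOR (206 and 165 to 100.3 and 118 CPM). The Notch targets Hes1 (43.2 and 54.7 early, 49.1 and 55.1 CPM late), Dtx1 (143 and 86.6 early, 273 and 113 late) and Nrarp (69.7 and 75.8 early, 37.1 and 49.98 late) did not pass. With either replicate 1 library left out, 2 were higher and none lower.

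Of 29 genes of IL-7 and STAT5 signalling 7 rose (24.1%) and 2 fell (6.90%), with a median of 0.17. The shares of all tested genes were 6.64% and 4.3%. Socs2 and Socs3, feedback inhibitors of cytokine receptors, rose from 61.2 and 70.4 to 109 and 137 CPM and from 9.41 and 8.48 to 33.96 and 17.1 CPM. Il4ra went from 257 and 111 to 537 and 196 CPM, and Il21r rose by 1.08 on the log2 scale. Bcl2 went from 240.5 and 274 to 387 and 414 CPM, and whether reads of the Bcl2 transgene enter this count was not tested. Il2rb fell from 16.8 and 31.5 to 11.3 and 12.5 CPM and Stat3 by 0.28 on the log2 scale. Cish, a direct STAT5 target, had 21.5 and 35.2 CPM early and 28.8 and 40.8 CPM late and did not pass. Leaving out the early or late replicate 1 library gave 2 and 3 higher and 1 and 0 lower.

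**Figure D3:**
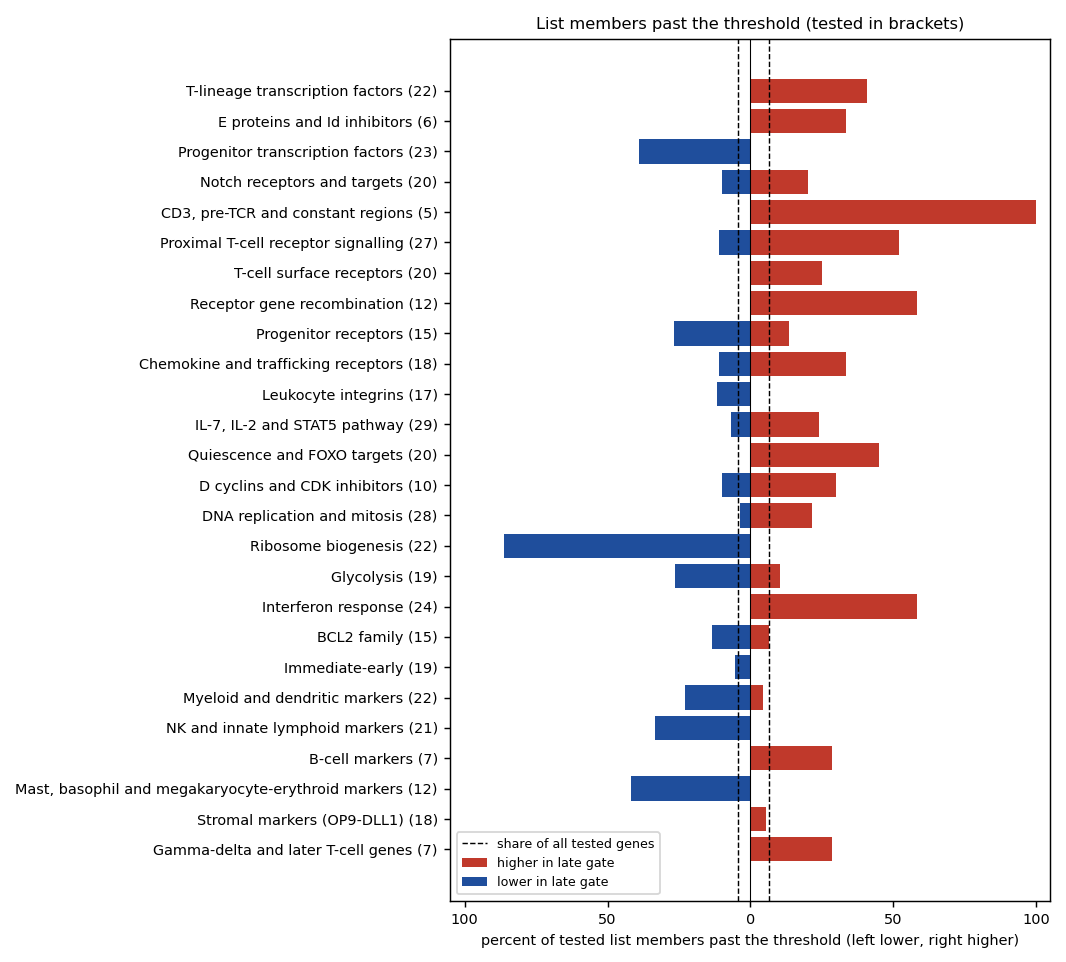
Percent of the tested members of each of 26 gene lists that were called higher (red, right) or lower (blue, left) in the late gate, with the tested number in brackets and dashed lines at the share of all tested genes, 6.64% higher and 4.3% lower. The bar of T-lineage factors includes Bcl11b, the gate gene. The CD3 list reaches 100% higher, and ribosome biogenesis 86.4% lower.

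Ribosome biogenesis was the list with the most members lower: 19 of 22 fell and 0 rose, by small amounts, with a median of -0.42. Ncl, which encodes nucleolin, went from 2566 and 2557 to 1685 and 2138 CPM. The list also counts Srm and Odc1, enzymes of polyamine synthesis and not ribosome factors. Srm, a spermidine synthase, went from 177 and 204 to 85.7 and 143 CPM (log2 difference -0.78, SE 0.15, adjusted p = 0.0167). Odc1, the ornithine decarboxylase, went from 384 and 394 to 218 and 303 CPM. Both late libraries lay below both early ones in 20 of the 22, where 24.2% of all genes did so. Differences were larger in pair 1 (median -0.58) than in pair 2 (-0.28), and 0 members passed with either replicate 1 library left out, while 8 did in the 4 control libraries alone. Of the remaining 3, Nop56 and Dkc1 did not pass and Tcof1 (468 and 297 early, 638 and 361 CPM late) had a positive difference. Glycolysis held 5 decreases (26.3%) and 2 increases (10.5%) among 19 (median -0.20), beside 4.3% lower and 6.64% higher of all tested genes. Aldoa, Tpi1, Ldha, Pgam1 and Hk2 fell by 0.66, 0.65, 0.44, 0.36 and 0.90 on the log2 scale, Hk1 and Aldoc rose by 0.46 and 1.33, and Gapdh had 398 and 435 CPM early and 366 and 442 CPM late with no call. No glycolysis gene passed with either replicate 1 library left out, and with the 4 control libraries alone 2 were higher and 1 lower.

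Of 20 genes linked to quiescence and FOXO factors 9 rose (45%) and 0 fell (median 0.58), beside 6.64% and 4.3% of all tested genes. Foxo1 went from 6.73 and 8.84 to 20.03 and 14.8 CPM, the CDK inhibitor Cdkn1b (p27) from 32.1 and 37.3 to 62.5 and 51.3 CPM and Klf4 from 35.8 and 14.01 to 79.1 and 38.7 CPM. Txnip, Ccng2, Btg1, Pik3ip1, Slfn2 and Klf3 rose by 0.80, 0.77, 0.75, 0.74, 0.83 and 0.97 on the log2 scale, and Klf2 (1.73 and 2.67 early, 3.18 and 2.10 CPM late) did not pass. Of 10 D cyclins, their kinases and CDK inhibitors 3 rose (30%) and 1 fell (10%). Ccnd1 fell from 9.09 and 15.5 to 1.91 and 6.68 CPM and Cdkn2c (p18) rose from 24.2 and 36.3 to 54.1 and 51.3 CPM. Of 28 genes of DNA replication and mitosis 6 rose (21.4%) and 1 fell (3.57%), with a median of 0.18. The shares of all tested genes were 6.64% and 4.3%. The increases were mitotic: Mki67 from 619.7 and 809 to 1151 and 1080.1 CPM, Top2a from 639.6 and 974 to 1235 and 1299 CPM, and Kif11, Plk1, Ccnb1 and Bub1 by 0.68, 0.65, 0.61 and 0.41. Ccne1, the G1/S cyclin, fell from 45.9 and 40.3 to 34.1 and 29.7 CPM, and Mcm2 to Mcm7, the replicative helicase, did not pass. Without the early or the late replicate 1 library 2 and 1 quiescence genes were higher, and no gene of the cyclin list or of replication or mitosis passed.

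Of 24 interferon-response genes 14 rose (58.3%) and 0 fell, with a median of 0.85, and the labels name no interferon treatment. Over all tested genes 6.64% were higher and 4.3% lower. Gbp5, a guanylate-binding GTPase, went from 11.5 and 12.4 to 39.7 and 32.5 CPM (log2 difference 1.60, SE 0.15, adjusted p = 0.00099) and Gbp2 from 14.9 and 20.8 to 42.4 and 42.9 CPM. Both late libraries lay above both early ones. Oasl2 went from 15.3 and 8.36 to 75.8 and 24.8 CPM, the nucleic-acid sensor Zbp1 from 2.79 and 2.47 to 15.9 and 5.68 CPM, Iigp1 from 0.827 and 4.66 to 7.85 and 25.1 CPM and Ifit3 from 1.06 and 0.289 to 6.62 and 2.42 CPM. The regulators Irf7, Irf9 and Stat2 rose by 1.12, 0.63 and 0.54 on the log2 scale. Ifit1 (4.01 and 1.16 early, 10.3 and 2.06 CPM late), Isg15 (7.01 and 6.40 early, 15.6 and 8.002 late) and Mx1 (1.02 and 0.450 early, 2.83 and 0.290 late) did not pass. Medians were 1.21 in pair 1 and 0.53 in pair 2, and 4 and 4 members passed without the early and the late replicate 1 library.

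Motif letters near the starts of these genes were counted as a description. The ISRE letters shown in capitals for Ifit3, Gbp2 and Gbp5 occurred in 9 of the 15 interferon-list windows (60%), beside 3.26% of all windows. Of 9 listed genes that rose and had a window, 5 held the ISRE, and of 6 that did not pass, 4 did. Among all genes called higher 7.19% held it and among those called lower 2.54%. The E2A E-box CAGGTG occurred in 3 of 4 windows of the CD3 list and in 17.5% of all, 22.4% of higher and 15.5% of lower genes. The MYC E-box CACGTG occurred in 10.1% of all, 6.23% of higher and 12.2% of lower genes, and in 3 of 16 windows of the ribosome biogenesis list. Shares for AGATAA were 6.22%, 6.71% and 7.85%, for CTTTGA 12.1%, 11.3% and 13.6%, for TGTGGT (RUNX) 13%, 11.3% and 15%, and for GAGGAAG 13.7%, 14.7% and 17.3%, in the order all, higher and lower. These windows numbered 626 for higher and 433 for lower genes.

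The 15 largest increases took in several genes outside these lists. Rab11fip4, an effector of Rab11 in vesicle traffic, went from 1.06 and 0.129 to 35.2 and 2.58 CPM (log2 difference 4.75, SE 0.44, adjusted p = 0.00099). Pdlim4, a PDZ and LIM domain protein, went from 3.54 and 0.450 to 59.2 and 4.52 CPM. Both were much higher in late replicate 1 than in the other 3 libraries. Pld4, an endolysosomal exonuclease, went from 32.2 and 7.87 to 219.9 and 64.6 CPM, and Cmah, which hydroxylates sialic acid, from 7.67 and 4.79 to 87.7 and 26.3 CPM. The interferon-inducible Ifi208 and Ifit1bl1 rose by 3.29 and 3.05 on the log2 scale, and Gpnmb, Arl5c, Slc23a4 and Gprin3 by 3.26, 3.26, 3.07 and 2.79.

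The 15 largest decreases took in genes known from myeloid, natural killer, erythroid and platelet cells. Other erythroid and platelet genes, such as Klf1, Hba-a1, Pf4 and Gp9, stayed under 1 CPM in all control libraries. Mpo, the neutrophil enzyme myeloperoxidase, went from 21.7 and 17.8 to 0.0383 and 2.32 CPM (log2 difference -4.18, SE 0.97, adjusted p = 0.0283). Sh2d1b1 (EAT-2) and Klrd1 (CD94), both of natural killer cells, went from 4.17 and 9.10 to 0 and 0.710 and from 1.89 and 9.26 to 0.191 and 0.419 CPM. Tyrobp (DAP12), an adaptor of innate receptors, went from 52.4 and 53.5 to 2.22 and 12.4 CPM. The beta-globin gene Hbb-b1 went from 299 and 324 to 16.2 and 94.1 CPM, and the entries Hbb-bs, Hbb-b2 and Hbb-bt share sequence or position with it, so these 4 decreases are not independent. P2rx1, Tnni1, Sema3c, Trpm2 and Aatk fell by 3.44, 3.23, 3.19, 2.98 and 2.68 on the log2 scale. Late replicate 1 was the lowest of the 4 libraries for every one of the 15.

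Markers of other cell types moved with the gates, and their part in the results above was not tested. Of 12 tested mast, basophil and megakaryocyte-erythroid markers 5 fell (41.7%) and 0 rose. Among all tested genes 4.3% were lower and 6.64% higher. The 5 include the beta-globin entries Hbb-b1 and Hbb-bt, which are not independent. The summed level of the list was 1552 and 1371 CPM early and 363 and 538 CPM late. It rested on Cpa3, Itga2b and the beta-globins, while 16 of its 24 genes stayed under 1 CPM in all control libraries. Among these 16 were the mast-cell tryptases Tpsb2 and Tpsab1, both at 0. The erythroid genes Klf1, Epor, Hba-a1 and Hba-a2 and the platelet genes Pf4, Ppbp, Gp1bb and Gp9 were also among them. Myeloid and dendritic markers had 5 of 22 lower (22.7%) and 1 higher (4.55%). The sums of this list were 183 and 206 CPM early and 98.5 and 138 CPM late. Mpo, Ctsg, Csf1r, Itgax and Fcgr3 were lower, and Elane, Cd14 and Fcgr1 stayed under 1 CPM. Natural killer and innate lymphoid markers had 7 of 21 lower (33.3%) and 0 higher. Their sums were 1937 and 2390 CPM early and 1144 and 1864 CPM late, and most of this was Gzma (1211 and 1517 early, 874 and 1409.6 CPM late), which did not pass, while Gzmb fell from 316 and 394 to 42.7 and 148 CPM. Without the early or late replicate 1 library 0 and 0 of the mast list, 1 and 1 of the myeloid list and 2 and 2 of the natural killer list were lower. Of 7 tested B-cell markers the 2 that rose, Rag1 and Blk, are also T-lineage genes, and the other 12 genes of the list in the table summed to 11.1 and 13.7 CPM early and 22.8 and 16.3 CPM late.

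Markers of stromal cells, the kind the progenitors grew on, ran the other way by value. Thy1, which T cells also express, was the 1 of 18 tested to pass, and the summed level of the other 19 genes was 176 and 528 CPM early and 288 and 874 CPM late, higher in replicate 2 and higher in the late gate of each pair. Col1a1 had 7.99 and 50.3 CPM early and 28.9 and 82.96 CPM late, Fn1 8.78 and 77.4 CPM early and 27.3 and 136 CPM late, and Dll1, the Notch ligand of the stroma, 1.06 and 9.93 CPM early and 2.30 and 14.8 CPM late. With the 4 control libraries alone 9 of the list passed, all higher, and its part in the results was not tested. Bcl11b and the CD3 genes were higher in replicate 1, where this sum was the lower, which compares replicates and not gates. Between gates the sum and these genes were all higher in the late library of each pair.

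**Figure D4:**
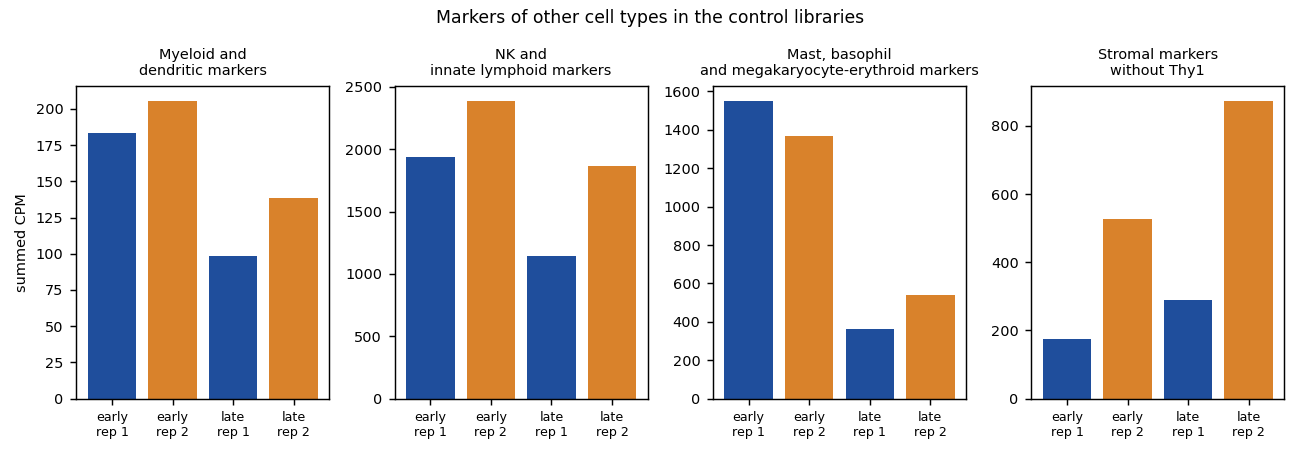
Summed CPM of 4 lists of markers of other cell types in the 4 control libraries, bars from 0, blue for replicate 1 and orange for replicate 2, with Thy1 left out of the stromal list. Myeloid, natural killer and mast or erythroid sums are lower in both late bars than in the early bar of the same replicate, and the stromal sum is higher.

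The same gates in sgStat5 cells, 4 other libraries of the same fit, gave 3144 genes past the threshold, 22.8% of those tested, 1562 higher (11.3%) and 1582 lower (11.5%). Of the 1507 genes called in control cells 1244 were also called there, 1242 with the same sign; this is 82.5% of the control calls and 39.6% of the sgStat5 calls. The test of the difference between the arms called 0 genes (0%) by edgeR, with 814 at an unadjusted p under 0.05 and a smallest adjusted p of 0.112, and DESeq2 called 71. Cd3d went from 6.83 and 3.99 to 132 and 50.3 CPM in sgStat5 cells (log2 difference 4.02, SE 0.38), Dntt from 292 and 86.5 to 2282 and 902 CPM and Itga2b from 235 and 323 to 14.9 and 60.3 CPM. Arl5c had log2 differences of 3.26 in control and 6.30 in sgStat5 cells, with an adjusted p of 0.202 by edgeR for the difference. The interferon list had 19 of 24 members higher in sgStat5 cells, and the ribosome biogenesis list 20 of 22 lower.

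**Figure D5:**
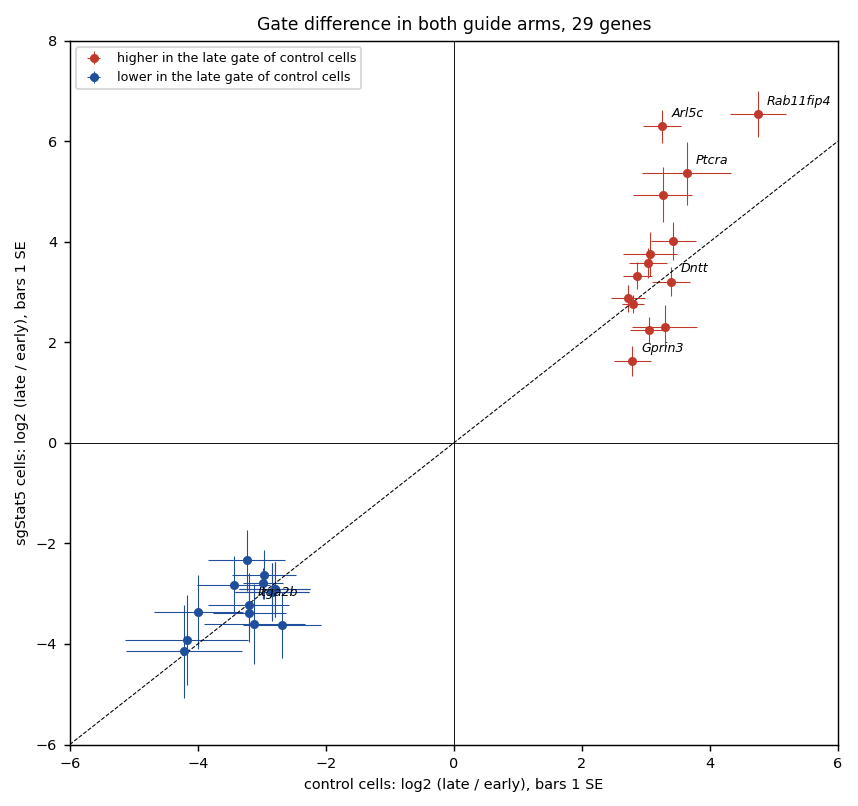
Log2 late to early difference in control (horizontal) and sgStat5 cells (vertical) for 29 of the 30 genes with the largest changes in control cells, with bars of 1 SE; the dashed line is equality. Pdlim4 is left out because both early sgStat5 libraries are at 0. All 29 have the same sign in both arms.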

How the data were processed

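Bulk RNA of sorted cells was sequenced from an unstranded kit, per the labels' protocols. Build mm10 and the tools STAR 2.4.0, RSEM 1.2.25 and bcl2fastq 1.8.4 appear in the submitters' processing notes. The authors deposited a table of raw read counts over exons of 1 RefSeq transcript per gene and a table of FPKM, both made with HOMER per the file headers. The counts were used here as deposited, and FPKM, fragments scaled to transcript length and library size, only for levels between genes and on a log2(FPKM + 1) scale in an alternative; those log2 values were computed here from the deposited FPKM.

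edgeR 4.0.16 in R 4.3.3 was fitted to all 8 libraries with filterByExpr, TMM scaling, 4 groups and the replicate number as a block, followed by quasi-likelihood F-tests with Benjamini-Hochberg adjustment over 13775 genes at 0.05. Standard errors are the log2 difference divided by the square root of F. Same-numbered libraries deviated together (r of 0.421 to 0.578 across genes, all 6 pairs of groups), and the second principal component (31.1%) separated the numbers, which is a hint from the data. The steps were tested on simulated data. Alternatives used limma 3.58.1, DESeq2 1.42.0, other filters and scalings, no block, and each library left out.

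The comparison, its gene lists and the naming rule were chosen with earlier results of these data known. Named genes were the 15 largest increases and 15 largest decreases among called genes with the same sign in both pairs and a mean of at least 5 CPM in the higher group, members of 26 lists, and the gate and guide genes. Genes with near-identical copies, such as the globins, and Stat5a and Stat5b, are uncertain. Some list members are counted but not reported here by name.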

Additional observations from a re-analysis of the deposited data

How the results depend on the processing

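Calls rested on the replicate block. With no replicate block, control cells had 2 genes higher and 0 lower, and sgStat5 cells 91 and 43. Of 156 called genes named in the text 2 passed, Gfra1 and Marcks, and the other 154 did not. Gfra1 and Marcks were the only genes of all those tested to pass, so this count does not measure how well the named genes held. Leaving out 1 library at a time gave 143 to 1103 higher and 18 to 714 lower in control cells, 593 to 1538 and 293 to 1522 in sgStat5 cells, and 0 to 6 genes that differed between the arms; 39 of the 156 passed throughout, and 44 did without the early and 45 without the late control replicate 1 library. The lower count in control cells was 380 without early control replicate 2. The lower count was 359 with control libraries alone and 951 with DESeq2, and the higher count 514 on log2(FPKM + 1). The difference between the arms gave 71 genes with DESeq2 and 11 without the filter on low counts. RLE scaling, limma-voom, no filter and a stricter filter kept both control counts within 1.5 times. In every such case the cause was not tested. Fits without a library leave that group of gate and guides 1 sample, assumed to vary like the other groups.

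No called gene named in the text changed direction under the alternatives run. Among genes without a call the log2 difference changed sign for Il2ra (0.0029 by limma-voom), Flt3 (0.17 with no replicate block, 0.20 by limma-voom), Runx2 (-0.00051 without the filter) and Xist (-0.12 by DESeq2). Leaving out 1 library at a time gave ranges across 0 for Cd28 (-0.23 to 1.14), Cish (-0.13 to 0.71), Ddx3y (-0.30 to 0.31), Erg (-0.19 to 0.16), Flt3 (-1.003 to 0.59), Gapdh (-0.11 to 0.0058), Hes1 (-0.024 to 0.21), Il2ra (-0.18 to 0.17), Itgb3 (-0.074 to 0.24), Klf2 (-0.20 to 0.74), Mcm7 (-0.042 to 0.0054), Mx1 (-1.14 to 1.84), Runx2 (-0.18 to 0.23), Xist (-5.01 to 0.96) and Xrcc5 (-0.17 to 0.12).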

Other observations

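Survival genes and immediate-early genes were called in 1 or 2 members a direction at most, where 6.64% of all tested genes were higher and 4.3% lower: 6.67% of the BCL2 family were higher and 13.3% lower, and 5.26% of immediate-early genes were lower. None passed with either replicate 1 library left out. Of 15 tested members of the BCL2 family, Bcl2 was higher and the pro-death members Bak1 (117 and 154 early, 89.2 and 113 CPM late) and Bid (74.98 and 78.8 early, 42.6 and 55.98 CPM late) were lower, while Bcl2l11 (BIM) did not pass. Of 19 immediate-early genes Nr4a1, a receptor induced by antigen-receptor signals, fell from 10.1 and 12.5 to 3.87 and 7.20 CPM, and Egr1 (23.7 and 45.1 early, 14.7 and 45.1 CPM late) did not pass. Of 7 gamma-delta and later T-cell genes Sox13 rose from 15.03 and 16.1 to 24.05 and 35.4 CPM and the kinase Blk from 60.2 and 25.6 to 172 and 61.4 CPM.

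Of the 1507 genes called in control cells, 9 had the opposite sign in both sgStat5 pairs; they are named here because of their values. Dscam, a cell adhesion gene, went from 1.89 and 2.83 to 0.230 and 0.419 CPM in control and from 3.86 and 3.10 to 11.4 and 10.97 CPM in sgStat5 cells, with the smallest adjusted p for the difference between the arms, 0.112 by edgeR. H2-Eb1, a class II antigen-presentation gene, went from 3.11 and 4.31 to 0.115 and 1.26 CPM in control and from 4.40 and 16.99 to 14.1 and 26.2 CPM in sgStat5 cells. The family members Khdc1a and Khdc1c rose by 0.77 and 0.78 in control and had differences of -0.22 and -0.21 in sgStat5 cells, on the log2 scale. The others were Lilr4b, B3gat3, Mdfic, Cndp2 and Gem.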
